A study of Arabidopsis thaliana with 6 samples.

Results

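The 200 genes described here are those whose transcript levels differed most between replicates 1, 2 and 3 in the same way in mac3a mac3b mutant leaves and in Col-0 leaves. They were taken from the 27655 mRNA genes of the deposited expression table, in which levels are given as RPKM (reads scaled to gene length and to the size of the library). A mean of 10 RPKM or more over the 6 libraries was required, which left 8828. Of these, 3469 had the same rank order of the 3 replicates in both genotypes on the log2(RPKM + 1) scale. The smaller of the 2 within-genotype ranges (highest minus lowest replicate) gave each gene a score, and the 200 highest scores were taken. The replicate values therefore chose the genes, and they are described below without any test.

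The study sequenced polyA RNA from rosette leaves of 40-day-old Arabidopsis thaliana grown at 22 °C in short days of 8 hours of light and 16 hours of dark, when the plants were still vegetative. The 3 mac3a mac3b libraries came from the double mutant of MAC3A and MAC3B, and the 3 Col-0 libraries from the wild-type accession. The allele names, the number of plants behind a library and the meaning of a replicate number are not stated in the labels. Tests between the genotypes therefore measure the spread between these libraries, which may be technical. MAC3A and MAC3B are U-box proteins of the MOS4-associated complex, the plant relative of the Prp19 complex of the spliceosome, and the study asked how their loss leads to early flowering.

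The libraries held 80626787 to 108909613 uniquely assigned reads over the genes with deposited read counts. MAC3A had 8.87, 6.31 and 5.92 RPKM in mac3a mac3b replicates 1, 2 and 3, against 22, 16.7 and 20.18 RPKM in Col-0. MAC3B had 8.98, 5.64 and 7.6 RPKM in mac3a mac3b replicates 1, 2 and 3, against 35.4, 36.4 and 49 RPKM in Col-0. Both genes were lower in every mutant library than in any Col-0 library, as the labels say. The photosystem and light-harvesting list had 53 of 54 matched genes at 10 RPKM or more, whereas 13 of 19 root markers and 15 of 16 seed storage markers stayed under 1 RPKM in every library. Libraries of the 2 genotypes with the same replicate number deviated from their group means together over 17163 genes (r = 0.62, 0.78 and 0.43 for replicates 1, 2 and 3), and without the 200 genes these values were 0.59, 0.76 and 0.40. Same-numbered libraries were therefore treated as pairs, and values from a blocked fit, which takes the replicate number as a term, stand beside those from the fit without it.

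Leaf transcripts respond within minutes to hours to touch, wounding, cold, light, nitrate and sugar, and many follow the time of day. Early response genes encode mostly short-lived transcription factors and regulators, while dehydrins and other protective proteins accumulate over hours under cold or abscisic acid. The genes of cytosolic ribosomal proteins form a large family, usually with several near-identical copies per protein, and their transcripts tend to rise and fall together with growth and energy supply. Their promoters often carry the site II element, bound by TCP factors, and the telo-box.

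All 6 possible orders of the replicates occurred among the 200 genes, and 1 order held the most. The order with replicate 1 highest and replicate 2 lowest (written 1 > 3 > 2) was held by 81 genes, or 40.5% of the 200, against 22.9% of the 3469 genes of equal order. The order 2 > 3 > 1 was held by 37 genes, 3 > 2 > 1 by 30, 2 > 1 > 3 by 24, 1 > 2 > 3 by 19 and 3 > 1 > 2 by 9. In this listing the numbers are names of libraries, with no sequence in time attached to them.

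**Figure D1:**
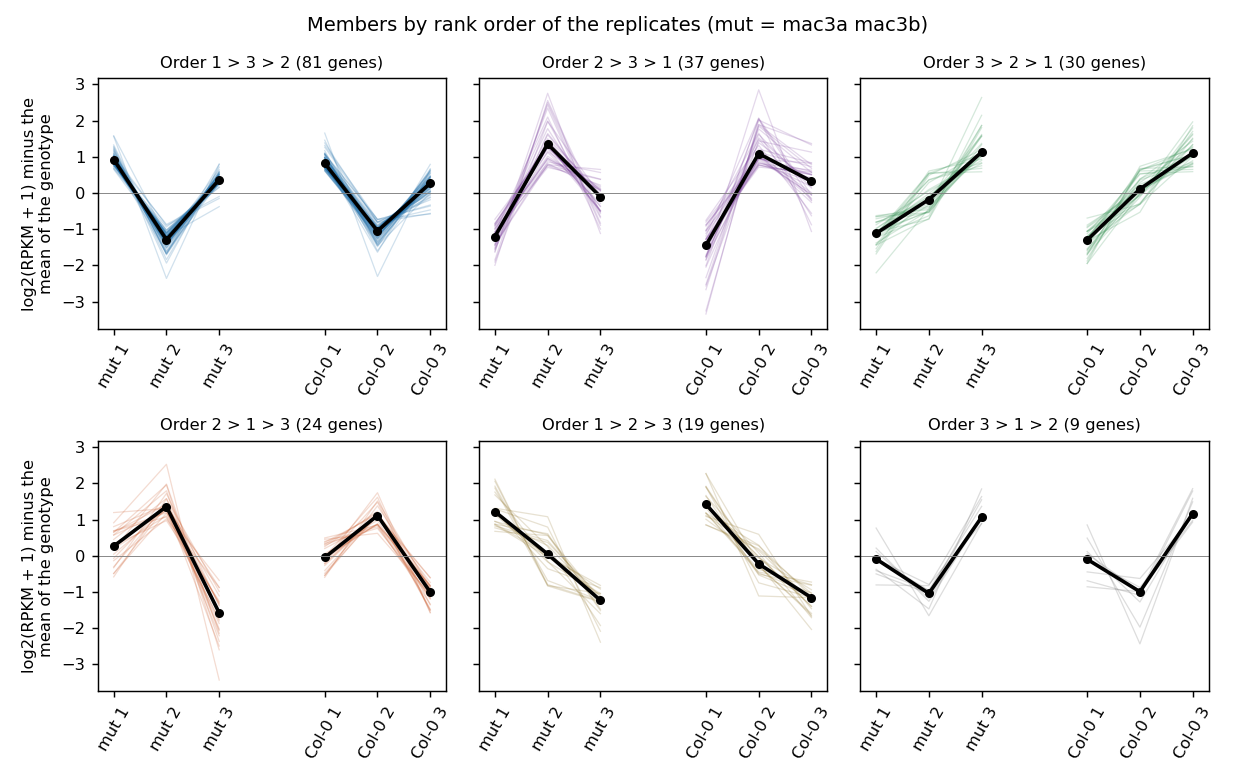
Levels of the 200 genes by library, one panel for each order of the replicates; the y axis is log2(RPKM + 1) minus the gene's mean in that genotype, thin lines are genes and black points are medians. In the panel of 81 genes replicate 2 lies below replicates 1 and 3 in both genotypes, and in the panel of 24 genes replicate 3 lies lowest.

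The median range over replicates was 2.29 log2 units in mac3a mac3b and 2.08 in Col-0 for the 200 genes, against 0.53 in each genotype for the other 8628 genes of at least 10 RPKM. The range was wider in the mutant for 133 genes and wider in Col-0 for 67. The replicate number accounted for a median of 91.9% of a gene's variance over the 6 libraries and the genotype for 3.93%, against 60.9% and 15.2% in the other genes. These shares follow from the way the genes were chosen. Outside the rule, among 7700 mRNA genes of 1 to 10 RPKM, 2786 (36.2%) had equal order in the genotypes, against 39.3% at 10 RPKM or more.

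**Figure D2:**
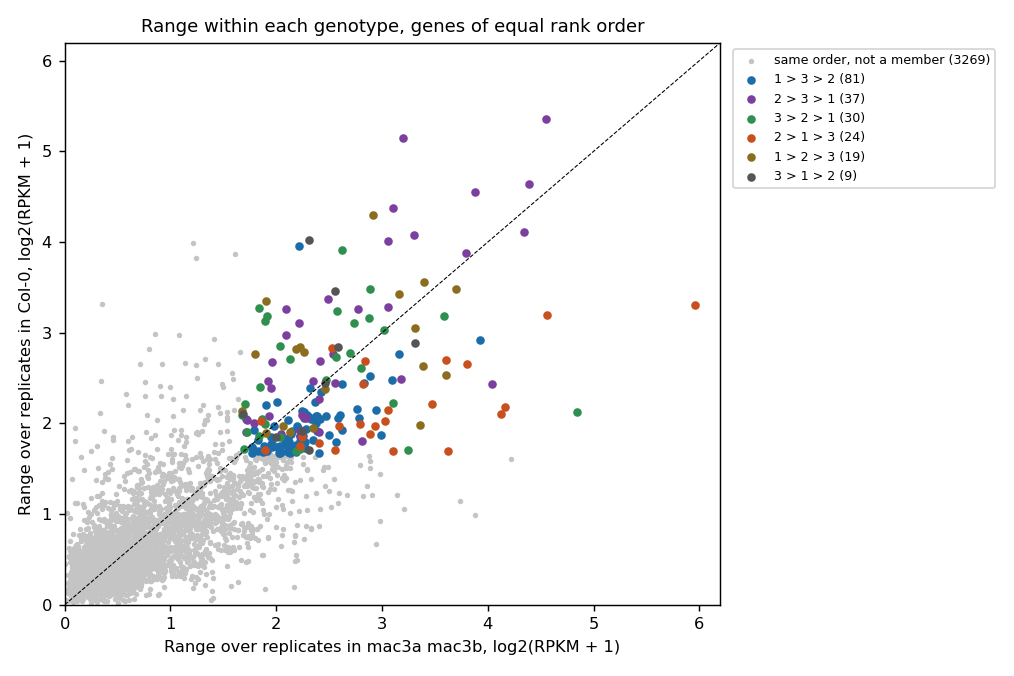
Range over the 3 replicates in mac3a mac3b (x axis) and in Col-0 (y axis), in log2(RPKM + 1), for the 3469 genes of equal order; colours mark the 200 chosen genes by order and the dashed line marks equal ranges. The chosen genes fill the corner above 1.67 on both axes, and 133 of them lie below the line.

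The list ended between RPS5B, a protein of the small ribosomal subunit, with a score of 1.67007, and AT5G03850, with 1.66695. The other genes just inside were AT3G53890 (ribosomal protein S21e, 1.67074) and AT3G07110 (ribosomal protein L13 family, 1.67317). The genes just outside after AT5G03850 were BBX18, a B-box protein (1.66482), and AT1G03220 (1.66029). The highest score was 4.55, that of MYB90.

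Upstream sequence, which the rule did not use, was searched for known promoter elements. The windows are the 250 bases before the annotated gene start, read from the RefSeq genome TAIR10.1 for all 200 genes and for 8812 of the genes of at least 10 RPKM, and 14 motifs were searched on both strands. Each motif was counted in each of 6 orders, and the shares given here were picked after all were seen, so they are a description. Of the ribosomal protein genes among the 200, 37 of 65 (56.9%) held site II (GGCCCA) and 18 (27.7%) held the telo-box (AAACCCTA), against 19.7% and 3.58% of all windows. Of the 295 ribosomal protein genes of at least 10 RPKM, 50.8% held site II and 16.3% the telo-box. In the order 2 > 3 > 1, the G-box (CACGTG) was present in 7 of 37 windows (18.9%) and ACGTGGC, the core of the abscisic acid response element, in 6 (16.2%), against 7.89% and 4.36% of all windows. These motifs overlap in CACGTGGC. In the order 2 > 1 > 3, the W-box (TTGACC or TTGACT), the binding site of WRKY factors, was present in 11 of 24 windows (45.8%) and the GCC-box (GCCGCC), the site of ERF factors, in 5 (20.8%), against 26.6% and 2.00%. Over all 200 windows the W-box was in 20%, below the 26.6% of all windows, and the GCC-box in 2.5%; 4 of the other orders held the W-box in 13.6% to 20% of windows. The I-box (GATAAG) was in 31.6% of the windows of order 1 > 2 > 3 and 29.2% of order 2 > 1 > 3, against 13.4% of all windows, and TATCCA, a sugar response motif, in 36.8% and 33.3% of the same orders, against 15.3%. The core of the cold response element (CCGAC) was present in 20% of the windows of order 3 > 2 > 1 and 20.8% of order 2 > 1 > 3. It was in 10.8% of order 2 > 3 > 1, and the remaining orders held it in 0% to 11.1%. Over all 200 windows it was in 13%, against 13.7% of all windows. The evening element (AAAATATCT) was in 3.5% of the 200 windows and 3.04% of all. A match is a string of letters and no evidence of binding.

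Windows that hold both motifs of their order are printed here to show how the motifs lie, for the highest-scoring genes whose window overlaps no other gene; the motifs were picked after their shares were known. Each is written 5′ to 3′ on the strand of its gene, ending at the base before the gene start, with motif letters in capitals. In the ribosomal protein genes AT2G37600 (L36e family) and AT5G16130 (S7e family) the capitals mark site II and the telo-box. In GolS3 (galactinol synthase, for raffinose-type sugars) and AT5G17460 they mark the G-box and the abscisic acid element, and in ERF11 (an ERF repressor) the W-box and the GCC-box.
AT2G37600 (chr2:15775375-15775624, minus strand): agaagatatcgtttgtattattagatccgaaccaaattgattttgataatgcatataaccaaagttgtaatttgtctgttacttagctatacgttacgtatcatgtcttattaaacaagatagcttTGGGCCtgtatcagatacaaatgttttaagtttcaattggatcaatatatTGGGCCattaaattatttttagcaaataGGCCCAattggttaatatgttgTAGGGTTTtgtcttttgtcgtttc
AT5G16130 (chr5:5268171-5268420, plus strand): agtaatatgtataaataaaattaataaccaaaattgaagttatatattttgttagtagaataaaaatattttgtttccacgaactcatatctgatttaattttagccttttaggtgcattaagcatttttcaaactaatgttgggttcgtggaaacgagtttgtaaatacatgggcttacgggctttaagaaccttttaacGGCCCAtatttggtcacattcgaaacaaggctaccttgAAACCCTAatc
GolS3 (AT1G09350, chr1:3019389-3019638, plus strand): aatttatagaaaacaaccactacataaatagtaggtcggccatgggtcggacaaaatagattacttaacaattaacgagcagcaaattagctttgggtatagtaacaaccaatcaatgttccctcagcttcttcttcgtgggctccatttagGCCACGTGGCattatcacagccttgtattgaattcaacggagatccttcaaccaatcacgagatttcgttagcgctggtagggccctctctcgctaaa
AT5G17460 (chr5:5759818-5760067, minus strand): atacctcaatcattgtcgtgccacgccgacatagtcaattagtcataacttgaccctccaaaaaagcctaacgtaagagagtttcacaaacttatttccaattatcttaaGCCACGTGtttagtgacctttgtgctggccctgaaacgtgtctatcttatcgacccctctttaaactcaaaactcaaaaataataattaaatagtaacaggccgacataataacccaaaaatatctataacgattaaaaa
ERF11 (AT1G28370, chr1:9956981-9957230, minus strand): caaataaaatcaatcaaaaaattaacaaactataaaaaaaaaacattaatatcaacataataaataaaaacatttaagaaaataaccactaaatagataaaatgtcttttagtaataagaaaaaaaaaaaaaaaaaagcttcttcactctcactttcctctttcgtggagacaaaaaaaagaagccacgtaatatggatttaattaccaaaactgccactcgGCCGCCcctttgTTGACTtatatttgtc

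The AT2G37600 window holds 3 copies of site II and 1 telo-box, and that of AT5G16130 holds 1 of each. ERF11 was the 1 gene of its order with both of its motifs in a window free of other genes.

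Ribosomal protein genes made up 65 of the 81 genes with order 1 > 3 > 2, and replicate 2 was lowest for all of them in both genotypes. By the words of the reference's notes, 55 of the 65 were grouped as cytosolic, 1 as organellar, and 9 have no compartment given. The 1 grouped as organellar, AT1G26880, has the same product name (L34e superfamily) as AT3G28900, which was grouped as cytosolic. The organellar group may thus hold cytosolic proteins. This grouping was made after their values were seen. AT5G60670 (L11 family), the ribosomal protein gene with the highest score, had 66.5, 8.13 and 40.2 RPKM in mac3a mac3b replicates 1, 2 and 3, against 59.7, 9.55 and 36.4 RPKM in Col-0. RPS6, the S6 protein of the small subunit, had 249.9, 40.4 and 159.8 RPKM in mac3a mac3b replicates 1, 2 and 3, against 180.2, 41.4 and 89.9 RPKM in Col-0. In both genes replicate 2 stood far below the other libraries of its genotype, and the 2 genotypes had overlapping levels.

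Of the 173 cytosolic ribosomal protein genes of at least 10 RPKM, 118 were not among the 200, and 96 of these 118 also had order 1 > 3 > 2 in both genotypes. Their median levels were 143, 43.2 and 108 RPKM in mac3a mac3b replicates 1, 2 and 3, against 105, 41.7 and 89.8 RPKM in Col-0. In both genotypes 115 of the 118 were lower in replicate 2 than the mean of replicates 1 and 3, by a median difference of −1.53 log2 units in the mutant and −1.24 in Col-0. Among 999 other genes of 0.778 to 1.08 kb, the span between the quartiles of the cytosolic ribosomal genes' lengths, this difference was −0.10 in the mutant and −0.06 in Col-0. Of the 43 ribosomal protein genes grouped as organellar by the notes, 7 had that order. The medians of the 43 were 254, 125 and 256 RPKM in mac3a mac3b replicates 1, 2 and 3, against 301, 142 and 111 RPKM in Col-0. In Col-0 the median of this group was thus lowest in replicate 3, unlike that of the cytosolic group. Many of these genes have near-identical copies, so the split of reads between copies is uncertain.

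**Figure D3:**
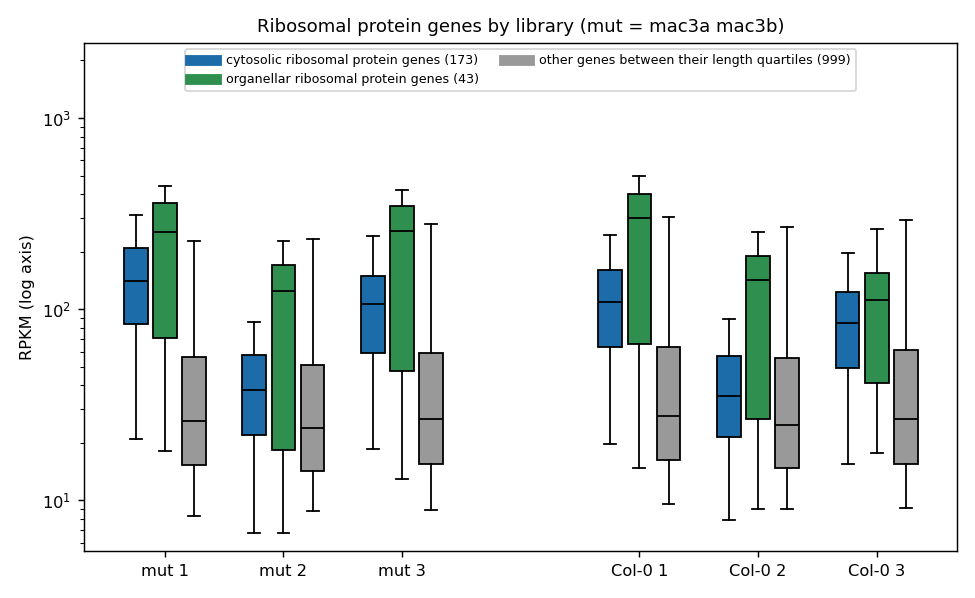
RPKM by library (log axis) of 173 cytosolic and 43 organellar ribosomal protein genes, grouped by the reference's notes, and of 999 other genes. The length of the 999 lies between the quartiles of the cytosolic genes' lengths. Boxes span the quartiles, lines in them are medians and whiskers run from the 5th to the 95th percentile. The 173 cytosolic genes include 55 of the 200; their medians of replicate 2 are 37.6 in mac3a mac3b and 35.0 in Col-0, below replicates 1 and 3 of both genotypes, while the grey boxes stay level.

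Other measures of the same libraries are given beside this order, and their part in it was not tested. The sum of RPKM over all features was 663156, 611547 and 684010 in mac3a mac3b replicates 1, 2 and 3, against 710822, 593446 and 541542 in Col-0. The median over the 8828 genes stayed at 21.9, 21.5 and 22.1 RPKM in mac3a mac3b replicates 1, 2 and 3, against 22.1, 21.7 and 22.5 RPKM in Col-0. The 53 cell division markers, of which 12 were under 1 RPKM in every library and 0 were at 0 throughout, summed to 529, 303 and 417 RPKM in mac3a mac3b, against 550, 282 and 284 RPKM in Col-0. Replicate 2 was thus lowest for this sum in the mutant, and in Col-0 replicates 2 and 3 were alike. In bulk leaves, fewer cells of a type and less RNA per cell cannot be told apart.

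The other 16 genes of order 1 > 3 > 2 included both nitrate reductases, which catalyse the first step of nitrate assimilation. NIA2 had 296, 18.6 and 173 RPKM in mac3a mac3b replicates 1, 2 and 3, against 47.3, 5.41 and 16.6 RPKM in Col-0. NIA1 had 49.9, 5.4 and 27.1 RPKM in mac3a mac3b replicates 1, 2 and 3, against 8.34, 1.56 and 4.85 RPKM in Col-0. Replicate 2 was lowest for both and the mutant was higher in each pair. RACK1C, written RACK1C_AT in the reference, and RACK1B are copies of a scaffold protein on the small ribosomal subunit. RACK1C_AT had 90, 9.2 and 63 RPKM in mac3a mac3b replicates 1, 2 and 3, against 69.5, 9.35 and 41.1 RPKM in Col-0, and RACK1B_AT was likewise lowest in replicate 2. AT4G12600, of the L7Ae/L30e/S12e/Gadd45 family, had 84.2, 8.96 and 52.3 RPKM in mac3a mac3b replicates 1, 2 and 3, against 61.2, 10.1 and 58.9 RPKM in Col-0. In RACK1C_AT and AT4G12600 replicate 2 was far below both other replicates, and the genotypes overlapped. RNR1, the large subunit of ribonucleotide reductase and the 1 cell division marker among the 200, had 24.2, 6.09 and 11.1 RPKM in mac3a mac3b replicates 1, 2 and 3, against 26.1, 6.67 and 8.92 RPKM in Col-0. GASA4, a gibberellin-responsive peptide gene, had 145, 43.6 and 94.7 RPKM in mac3a mac3b replicates 1, 2 and 3, against 171, 40.7 and 45.4 RPKM in Col-0. In RNR1 and GASA4, replicate 1 stood well above both other libraries in Col-0.

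The 37 genes of order 2 > 3 > 1 included genes of anthocyanin, cold and dehydration responses, and the 5 highest scores. MYB90, an activator of anthocyanin genes, had 0.22, 27.7 and 2.31 RPKM in mac3a mac3b replicates 1, 2 and 3, against 0.05, 42.1 and 25.7 RPKM in Col-0. AT4G14090, a UDP-glycosyltransferase family gene, had 0.39, 28.2 and 0.99 RPKM in mac3a mac3b replicates 1, 2 and 3, against 0.51, 36.6 and 1.49 RPKM in Col-0. Both were under 1 RPKM in replicate 1 of both genotypes, and AT4G14090 was low in replicate 3 as well.

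HIS1-3, a linker histone variant induced by drought and abscisic acid, had 0.81, 25.7 and 5.49 RPKM in mac3a mac3b replicates 1, 2 and 3, against 4.96, 139 and 64.2 RPKM in Col-0. AT4G01390, a TRAF-like family gene, had 2.23, 64.6 and 6.43 RPKM in mac3a mac3b replicates 1, 2 and 3, against 8.63, 165 and 71.2 RPKM in Col-0. Replicate 2 was highest in both genes, and each mutant library was lower than its Col-0 partner. GAMMA-VPE, a vacuolar cysteine protease, had 30.3, 433 and 45.1 RPKM in mac3a mac3b replicates 1, 2 and 3, against 49.8, 748 and 159 RPKM in Col-0. The ankyrin repeat gene AT5G15500 had 0.07, 8.82 and 0.15 RPKM in mac3a mac3b replicates 1, 2 and 3, against 0.06, 36.6 and 25.1 RPKM in Col-0. AT5G15500 was close to 0 in replicate 1 of both genotypes, and in replicate 3 in the mutant but not in Col-0.

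A dehydrin and other cold-regulated genes had this order. LTI30, a dehydrin, had 2.97, 38.1 and 5.13 RPKM in mac3a mac3b replicates 1, 2 and 3, against 7.07, 135 and 30.2 RPKM in Col-0. KIN1, a small hydrophilic stress protein, had 5.96, 39.5 and 14.5 RPKM in mac3a mac3b replicates 1, 2 and 3, against 12.8, 92.6 and 27.9 RPKM in Col-0. COR413IM1, a protein of the chloroplast inner envelope, had 40.6, 290.2 and 105 RPKM in mac3a mac3b replicates 1, 2 and 3, against 199, 701 and 360.1 RPKM in Col-0. In all 3 genes the mutant was lower in every pair, and their levels in the 2 genotypes overlapped. Of 18 cold response genes at 10 RPKM or more, 14 had equal order in the genotypes and 9 were among the 200 (50.0%), against 2.27% of all 8828 genes. Of the 9, 5 had the order 2 > 3 > 1, 2 had 3 > 2 > 1 and 2 had 2 > 1 > 3. All gene lists, this one included, were chosen with earlier results of these data known. Their shares are therefore a description and no independent comparison with all genes. The 39 symbols of the flavonoid list gave 35 genes, of which 19 were at 10 RPKM or more, and MYB90 was the 1 member among these. AT4G14090 was matched to none of the symbols, which include UDP-glycosyltransferases, so this count may be too low. Of 27 glucosinolate genes, 2 were members, both of the methionine chain-elongation steps. BCAT4, the aminotransferase of the first step, had 39.7, 277 and 89.7 RPKM in mac3a mac3b replicates 1, 2 and 3, against 12.7, 130.4 and 16 RPKM in Col-0. MAM1, the condensing enzyme, had 109, 425 and 159.9 RPKM in mac3a mac3b replicates 1, 2 and 3, against 29.8, 196 and 39.5 RPKM in Col-0. Both were highest in replicate 2 and, unlike LTI30, higher in the mutant in every pair. NAC019, an abscisic acid-responsive NAC factor, had 24.1, 116 and 31.8 RPKM in mac3a mac3b replicates 1, 2 and 3, against 9.39, 36.8 and 14.1 RPKM in Col-0. NAC019 was also higher in the mutant in every pair.

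The highest scores of order 3 > 2 > 1 were those of a starch-degrading enzyme and a plastid sigma factor. CT-BMY, the plastid beta-amylase BAM3 that releases maltose from starch and also responds to cold, had 122, 203 and 1475 RPKM in mac3a mac3b replicates 1, 2 and 3, against 205, 606 and 1878 RPKM in Col-0. SIGE, a light- and stress-responsive sigma factor of the plastid RNA polymerase, had 11.1, 28.2 and 97.2 RPKM in mac3a mac3b replicates 1, 2 and 3, against 2.32, 9 and 26.1 RPKM in Col-0. Replicate 3 stood far above both other replicates in both genotypes.

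AMT1;2, an ammonium transporter, had 9.43, 12.3 and 76 RPKM in mac3a mac3b replicates 1, 2 and 3, against 2, 7.91 and 32.5 RPKM in Col-0. XTH24, a cell wall xyloglucan enzyme, had 1.86, 11.9 and 20 RPKM in mac3a mac3b replicates 1, 2 and 3, against 0.85, 10.9 and 15.5 RPKM in Col-0. Replicate 3 was highest for both, and for XTH24 replicate 2 came close to it. GPT2, which carries glucose 6-phosphate into plastids, had 25.8, 37.6 and 163 RPKM in mac3a mac3b replicates 1, 2 and 3, against 2.36, 11.8 and 49.6 RPKM in Col-0. ELIP1, an early light-induced chlorophyll-binding protein, had 6.68, 14.8 and 44.7 RPKM in mac3a mac3b replicates 1, 2 and 3, against 0.45, 5.6 and 12.7 RPKM in Col-0. GPT2 and ELIP1 were higher in the mutant in every pair. LTI78, the desiccation-responsive RD29A gene, had 133, 438 and 791 RPKM in mac3a mac3b replicates 1, 2 and 3, against 278, 1392 and 1860.3 RPKM in Col-0. LTI78 was lower in the mutant in every pair. EXL4, an EXORDIUM-like gene, had 2.53, 4.43 and 22.4 RPKM in mac3a mac3b replicates 1, 2 and 3, against 2.71, 6.94 and 30.9 RPKM in Col-0, with overlapping genotypes. On the list named for sugar starvation and dark induction, 2 of 24 genes were members, GPT2 and TPS11, which had different orders. With LTI78 and NAC019, 2 of 24 abscisic acid and drought genes were members. Each share was 8.33%, against 2.27% of all 8828 genes. ELIP1 was the 1 member of 53 photosystem and light-harvesting genes, of which 10 had equal order in the genotypes.

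The 24 genes of order 2 > 1 > 3 included 7 genes of the touch and wound list, and 14 of the 24 (58.3%) have no annotated intron, against 7.91% of genes at 10 RPKM or more. ORA47, an ERF factor that activates jasmonate synthesis, had 48.1, 149.6 and 1.42 RPKM in mac3a mac3b replicates 1, 2 and 3, against 17.1, 67.2 and 5.9 RPKM in Col-0. ERF6, an ethylene response factor, had 17.9, 45.8 and 0.99 RPKM in mac3a mac3b replicates 1, 2 and 3, against 10.7, 35.9 and 3.03 RPKM in Col-0. Replicate 3 was far below the others, most of all in the mutant.

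STZ, the zinc finger repressor ZAT10, had 38.8, 66.1 and 5.05 RPKM in mac3a mac3b replicates 1, 2 and 3, against 21.7, 85 and 17.57 RPKM in Col-0. WRKY40, a WRKY repressor of early defence genes, had 19.2, 46 and 1.63 RPKM in mac3a mac3b replicates 1, 2 and 3, against 17.8, 23.1 and 4.31 RPKM in Col-0. JAZ1, a jasmonate signalling repressor, had 46.2, 195 and 21.8 RPKM in mac3a mac3b replicates 1, 2 and 3, against 27.1, 51.7 and 15.3 RPKM in Col-0. The highest library of JAZ1 was mutant replicate 2, and replicate 3 was lowest in both genotypes. AT4G29780, a nuclease family gene, had 7.57, 17.8 and 0.54 RPKM in mac3a mac3b replicates 1, 2 and 3, against 12.8, 26.1 and 3.16 RPKM in Col-0. AR781 had 37.1, 72.8 and 9.32 RPKM in mac3a mac3b replicates 1, 2 and 3, against 28.7, 53.2 and 7.44 RPKM in Col-0. Replicate 3 was the lowest in both genes. Of 28 touch and wound genes at 10 RPKM or more, 8 were members, 7 of them of this order, and 12 of the 28 had this order in both genotypes. JAZ1 was also the 1 member of 25 jasmonate genes, and 0 of 12 salicylic acid immunity genes were members. The median range was 2.91 in mac3a mac3b and 2.03 in Col-0 for these 24 genes, and it was wider in the mutant for 22. Their median pair difference (mac3a mac3b minus Col-0, log2) was 0.07, 0.12 and −0.94 in replicates 1, 2 and 3. The TIR-domain genes AT1G72900, AT1G72920 and AT1G72940 lie near each other within chr1:27432178-27443859 of TAIR10.1 and all had this order; their sequences are related, so shared reads are possible.

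The 19 genes of order 1 > 2 > 3 included growth-related genes. EXPB1, a beta-expansin that loosens cell walls, had 55, 46.5 and 3.3 RPKM in mac3a mac3b replicates 1, 2 and 3, against 17.59, 3.08 and 0.66 RPKM in Col-0. AT3G19030 had 56, 6.38 and 4.42 RPKM in mac3a mac3b replicates 1, 2 and 3, against 36.7, 7.25 and 2.2 RPKM in Col-0. In AT3G19030 replicate 1 stood apart, while in EXPB1 of the mutant replicates 1 and 2 were alike.

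AT1G13650, uncharacterised, had 92.8, 14.4 and 9.52 RPKM in mac3a mac3b replicates 1, 2 and 3, against 31.1, 2.07 and 1.97 RPKM in Col-0. AT2G20670, of the DUF506 family, had 78.9, 10.1 and 7.03 RPKM in mac3a mac3b replicates 1, 2 and 3, against 31.9, 4.23 and 2.95 RPKM in Col-0. In both, replicate 1 was several-fold above the others and the mutant was higher in every pair. HBI1, a bHLH factor that promotes growth, had 63.3, 27.7 and 12.8 RPKM in mac3a mac3b replicates 1, 2 and 3, against 55, 19.1 and 6.82 RPKM in Col-0. TPS11, of the trehalose phosphate synthase family and repressed by sugar, had 39.8, 9.83 and 2.97 RPKM in mac3a mac3b replicates 1, 2 and 3, against 21.3, 6.57 and 4.64 RPKM in Col-0. Their levels in the 2 genotypes overlapped. Of 35 auxin, brassinosteroid and gibberellin growth genes, 4 were members: EXPB1, HBI1, GASA1 and GASA4.

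The 9 genes of order 3 > 1 > 2 included surface and water transport genes. GASA1, a gibberellin-responsive peptide gene, had 13.3, 8.81 and 58 RPKM in mac3a mac3b replicates 1, 2 and 3, against 11.8, 10.7 and 82.8 RPKM in Col-0. RD28, the plasma membrane aquaporin PIP2;3, had 31.8, 5.11 and 34.9 RPKM in mac3a mac3b replicates 1, 2 and 3, against 11.9, 1.35 and 24.9 RPKM in Col-0. KCS1, which elongates fatty acids for cuticular wax, had 12.3, 12.1 and 71.1 RPKM in mac3a mac3b replicates 1, 2 and 3, against 17.39, 6 and 37.1 RPKM in Col-0. Replicate 3 was highest in every case, and replicate 2 was lowest by a clear margin for RD28. AT2G05540, a glycine-rich protein gene, had 7.66, 3.05 and 39.3 RPKM in mac3a mac3b replicates 1, 2 and 3, against 4.32, 3.02 and 28.6 RPKM in Col-0. RD28 was the 1 member of 15 aquaporin genes, of which 7 had this order. The 29 epidermis and cuticle markers, of which 3 were under 1 RPKM in every library and 0 were at 0 throughout, summed to 1426, 1003 and 2032 RPKM in mac3a mac3b, against 1075, 699 and 1250 RPKM in Col-0. The sum had the same order as these genes, while the median of the 18 markers at 10 RPKM or more did not. That median was 24.5, 28.2 and 45.1 RPKM in mac3a mac3b, against 20.65, 23.8 and 35.9 RPKM in Col-0. Of the 18 markers, 2 had the order 3 > 1 > 2 in both genotypes and 5 had 3 > 2 > 1. The part of the sum in the levels of the 9 genes was not tested. For RD28, whose gene end lies 51 bases from the next member AT2G37190, reads that cross the boundary could be shared.

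No member of the clock lists was found: 0 of 7 morning and 0 of 11 evening clock genes at 10 RPKM or more were among the 200. The heat shock list had 0 of 11, the guard cell list 0 of 8, the vascular list 0 of 9, the shoot apex and flower list 0 of 3 and the root list 0 of 1, and 0 seed storage genes reached 10 RPKM. Members were 2.27% of all 8828 genes, so a count of 0 is likely in lists this small and says little about them. Of 33 nutrition genes, 2 were members, the nitrate reductases.

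The genotype comparison was not used to choose the genes, but choosing genes with wide ranges inside each genotype makes the residual of a fit without the block large. The rule also kept only genes of equal order in both genotypes, and shared variation of that kind is what the block removes. The shares with the block are therefore no independent comparison of the 200 with all genes. By limma on log2(RPKM + 1), 0 of the 200 genes passed an adjusted p of 0.05 without the block, against 18 of 17163 genes tested (0.105%). At an unadjusted p under 0.05 there were 4 of the 200, against 11% of all genes. On the unique read counts of the 141 members that have them, edgeR without the block gave 0, against 0% of all genes, and 4 at an unadjusted p under 0.05, against 9.75%. DESeq2 without the block gave 1, AT3G21670, against 3.54%. With the replicate block, 34 of the 200 passed, 21 higher and 13 lower in mac3a mac3b, against 776 of 17163 (4.52%), with 463 higher (2.7%) and 313 lower (1.82%). At an unadjusted p under 0.05 there were 86 of the 200 with the block, against 24.6%. After each library was rescaled to an equal RPKM total, the blocked fit called 49 of the 200, 25 higher and 24 lower, against 6.74% of all genes (3.06% higher and 3.67% lower). With the block edgeR called 26 of the 141, against 4.02%, and DESeq2 46, against 14.1%. Without the pair of replicate 1, replicate 2 or replicate 3, the blocked count was 0, 18 and 24 of the 200. Over all 17163 genes these fits called 0, 237 and 394. All 34 genes kept their sign in each of these fits, which is no separate support, since the full blocked fit on the same pairs chose them. In simulated data, 200 genes drawn at random from all 17163, and not the members, were changed by 1.5 log2 units. The blocked limma fit recovered 121 of them, with 4 false calls. The simulation did not single out genes of wide range, so it gives no recovery rate for the members.

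The members' median log2 fold change was 0.17, with 127 positive and 73 negative, against 0.01 over all genes tested. It was −0.19 without mac3a mac3b replicate 1 and −0.18 without Col-0 replicate 2, fits in which 1 replicate number is left without its partner. Without the whole pair of replicate 1, 2 or 3 it was 0.11, 0.21 and 0.15. By order, the medians were 0.25 for 1 > 3 > 2, −1.02 for 2 > 3 > 1, 0.11 for 3 > 2 > 1, −0.22 for 2 > 1 > 3, 0.40 for 1 > 2 > 3 and 0.45 for 3 > 1 > 2. The mutant was higher in all 3 pairs for 77 genes and lower in all 3 for 42, against 2081 and 2133 of the 8828 genes at 10 RPKM or more. The genotypes' levels did not overlap for 2 of the 200, AT2G15020 and AT3G21670, against 14.6% of those genes. The low count follows largely from the rule, since wide ranges inside each genotype make overlap likely.

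With the block, both nitrate reductases were higher in the mutant. AT2G15020, uncharacterised, had 5.92, 11.9 and 64.7 RPKM in mac3a mac3b replicates 1, 2 and 3, against 0.62, 2.15 and 4.27 RPKM in Col-0 (log2 fold change 2.59, SE 0.34 and limma adjusted p 0.0302 with the replicate block, and 0.35 without it). NIA2 averaged 163 ± 139 RPKM in mac3a mac3b and 23.1 ± 21.7 RPKM in Col-0 (SD, n = 3 each; log2 fold change 2.51, SE 0.33 and limma adjusted p 0.0291 with the replicate block, and 0.493 without it). AT3G21670, a major facilitator family transporter, had 48.5, 33.1 and 169 RPKM in mac3a mac3b replicates 1, 2 and 3, against 7.93, 6.87 and 24.7 RPKM in Col-0 (log2 fold change 2.44, SE 0.16 and limma adjusted p 0.0145 with the replicate block, and 0.303 without it). In AT2G15020 and AT3G21670 the lowest mutant library lay above the highest Col-0 library. GPT2 (log2 fold change 2.1, SE 0.30 and limma adjusted p 0.0345 with the replicate block, and 0.555 without it) and NIA1 (log2 fold change 2.01, SE 0.24 and limma adjusted p 0.0255 with the replicate block, and 0.447 without it) were also higher in 3 of 3 pairs. Among other members that rose with the block were SIGE, ELIP1, BCAT4, MAM1 and NAC019, with log2 fold changes of 1.76, 1.8, 1.69, 1.65 and 1.34.

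The falls were mostly in the order 2 > 3 > 1, which held 10 of the 13. HIS1-3 averaged 10.7 ± 13.2 RPKM in mac3a mac3b and 69.5 ± 67.3 RPKM in Col-0 (SD, n = 3 each; log2 fold change −2.48, SE 0.31 and limma adjusted p 0.0273 with the replicate block, and 0.592 without it). COR413IM1 averaged 145 ± 129.5 RPKM in mac3a mac3b and 420.3 ± 256 RPKM in Col-0 (SD, n = 3 each; log2 fold change −1.77, SE 0.24 and limma adjusted p 0.0306 with the replicate block, and 0.474 without it). LTI30 (log2 fold change −1.72, SE 0.26 and limma adjusted p 0.0373 with the replicate block, and 0.691 without it) was lower in 3 of 3 pairs. AT5G17460, annotated as a glutamyl-tRNA amidotransferase subunit, had 5.75, 27.7 and 13.8 RPKM in mac3a mac3b replicates 1, 2 and 3, against 12.4, 127 and 97.4 RPKM in Col-0 (log2 fold change −1.96, SE 0.34 and limma adjusted p 0.0469 with the replicate block, and 0.52 without it). AT1G27020 had 1.38, 1.94 and 7.48 RPKM in mac3a mac3b replicates 1, 2 and 3, against 3.19, 12 and 39.3 RPKM in Col-0 (log2 fold change −1.74, SE 0.31 and limma adjusted p 0.0487 with the replicate block, and 0.538 without it). Of 21 cold response genes tested, 9 fell and 0 rose with the block, 3 of them members (LTI30, COR413IM1 and KIN1), while without it 1 fell and 0 rose. For the touch and wound list 1 of 43 fell and 0 rose, and that gene was no member. The glucosinolate list had 18 rises among 34 genes tested, with MAM1 and BCAT4 the members, and 0 without the block.

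For the 65 ribosomal protein genes, 0 passed in either direction with the block, and their median log2 fold change was 0.22. Over all 295 such genes 1 rose and 0 fell. The median pair difference of the 65 was 0.34, 0.03 and 0.30 in replicates 1, 2 and 3, and the range over replicates was wider in the mutant for 63 of 65.

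**Figure D4:**
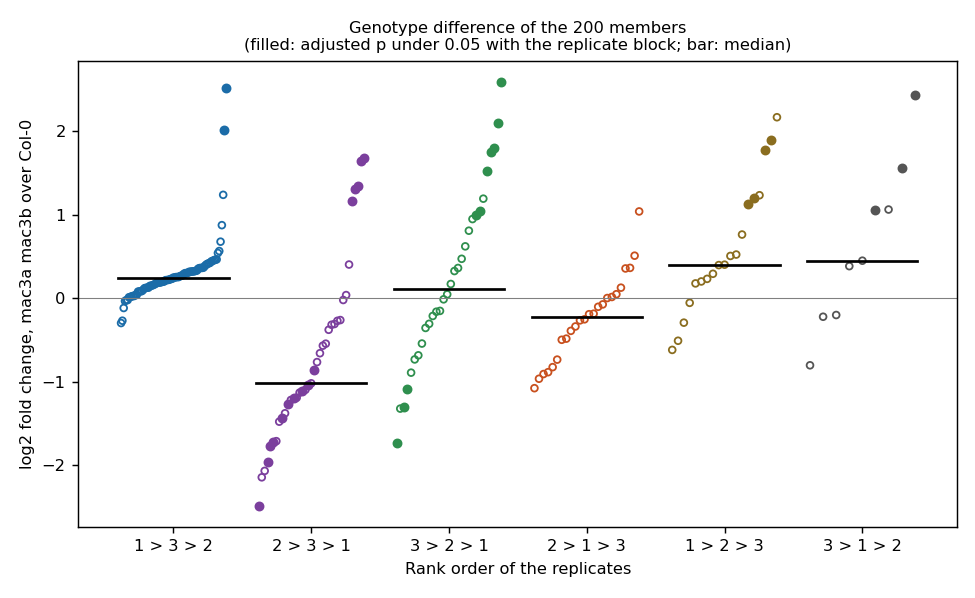
Log2 fold change of mac3a mac3b over Col-0 for each of the 200 genes, by order of the replicates; filled points passed an adjusted p of 0.05 with the replicate block, open points did not, and bars are medians. The 37 genes of order 2 > 3 > 1 have a median of −1.02, and the 24 of order 2 > 1 > 3 have no filled point.

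Intron retention, which the rule did not use, was higher in the mutant in these genes as across the transcriptome. Retention was taken as intron depth as a percent of intron plus neighbouring exon depth, a ratio within each library. Of 643 introns in 156 of the genes that reached a depth of 10 in every library, 468 passed, all higher in mac3a mac3b, against 59069 of 94773 introns (62.3%). The share for the genes was thus 72.8%. The 94773 introns were not limited to genes of 10 RPKM or more, and the part of read depth in this difference was not tested. With the replicate block 482 passed, against 61.9%. The 196 introns of ribosomal protein genes had 179 calls (91.3%) and the 447 other introns 289 (64.7%). The depth of the neighbouring exons in the shallowest library had a median of 1481 for the ribosomal introns and 215 for the others, and its part in this was not tested.

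The median retention over the 643 introns was 1.27%, 1.55% and 1.67% in mac3a mac3b replicates 1, 2 and 3, against 0.282%, 0.278% and 0.226% in Col-0. The lowest mutant library lay above the highest Col-0 library, and the means were 1.5% ± 0.208 in mac3a mac3b and 0.262% ± 0.0313 in Col-0 (SD, n = 3 each). The difference of 1.23 points had an exact two-sided permutation p of 0.1, the smallest that 3 against 3 can give. Over all introns tested the same medians averaged 1.65% in mac3a mac3b and 0.210% in Col-0. In the order 1 > 3 > 2, in which replicate 2 had the lowest transcript level, the median was 0.890%, 1.23% and 1.16% in mac3a mac3b replicates 1, 2 and 3, against 0.198%, 0.168% and 0.175% in Col-0. Replicate 2 thus had the highest median in the mutant and the lowest in Col-0.

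The largest rise was in intron 1 of AT5G19190, uncharacterised, which is 105 bases long and averaged 23.4% ± 4.80 in mac3a mac3b and 6.02% ± 1.77 in Col-0 (SD, n = 3 each; limma adjusted p 0.0039). Intron 2 of AT5G14120, of the major facilitator family, averaged 21.2% ± 2.68 in mac3a mac3b and 6.78% ± 2.71 in Col-0 (SD, n = 3 each; limma adjusted p 0.00748). Intron 6 of AT3G51870, a mitochondrial substrate carrier family gene, averaged 16.5% ± 2.26 in mac3a mac3b and 3.82% ± 1.36 in Col-0 (SD, n = 3 each; limma adjusted p 0.00338). A rise of at least 10 points was measured in 11 of the 643 introns, 7 of them in genes of order 1 > 2 > 3. No ribosomal protein intron rose by that much, and 0 introns passed as lower in the mutant.

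**Figure D5:**
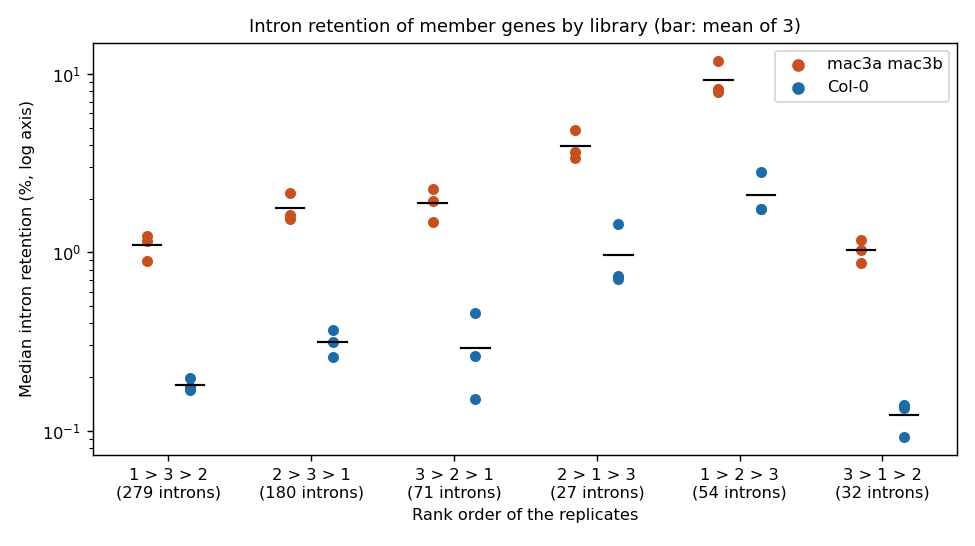
Median retention of member introns in each library (points, log axis) and the mean of the 3 libraries (bars), by order of the replicates, with mac3a mac3b left of Col-0. All 3 mutant points lie above all 3 Col-0 points in every order, from 0.872% in mac3a mac3b against 0.139% in Col-0 in replicate 1 for the order 3 > 1 > 2, to 11.7% in mac3a mac3b against 2.80% in Col-0 for the order 1 > 2 > 3.

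The 200 genes are short: their median length was 1.29 kb, against 1.70 kb at 10 RPKM or more, and 20% have no annotated intron, against 7.91%. The ribosomal protein genes had a median length of 0.951 kb and the other 135 genes 1.61 kb, and the order 1 > 3 > 2, which holds the ribosomal genes, had a median of 0.990 kb. The genes were spread over the 5 chromosomes, with 56 on chromosome 1 and 30 to 41 on each of the others, or 15% to 28.0% of the genes, against 15.1% to 26% of those at 10 RPKM or more. Pairs of members within 10000 bases numbered 8, of which 4 shared an order.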

How the data were processed

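PolyA RNA of 3 mac3a mac3b and 3 Col-0 leaf libraries was sequenced. The submitters' processing notes name Trimmomatic, Bowtie2, DESeq2 and the build TAIR10, with no version or role. Levels are the authors' RPKM; the header names no unit, and the deposited values times gene length are proportional to the unique reads. Unique read counts were deposited by the authors for 13069 genes, unnormalised, which held 141 of the 200 genes. Intron and exon signal is the average read depth deposited by the authors, unnormalised. The authors' deposited log2 fold changes and their p-values were not used for any result.

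The 200 genes and all gene lists were chosen with earlier results of these data known. Genotype differences were fitted with limma 3.58.1 (R 4.3.3) on log2(RPKM + 1) for the 17163 genes averaging 1 RPKM or more, trend on, with Benjamini-Hochberg adjustment over all of them. edgeR 4.0.16 (quasi-likelihood) and DESeq2 1.42.0 on unique counts were alternatives. Each of the 3 fits was repeated with the replicate block. Introns were fitted with limma on the log2 ratio of intron to exon depth, 0.5 added to each, for 94773 introns with a summed depth of at least 10 in every library. The exact permutation test used the 6 library medians. The scripts were tested on simulated data, with 200 random genes of 17163 changed by 1.5 log2 units. Limma recovered 84 without the block and 121 with it, with 0 and 4 false calls.

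Same-numbered libraries correlated at 0.62, 0.78 and 0.43 in their deviations, so numbers were taken to pair libraries. Differently numbered ones correlated at −0.61 to −0.09. Those values add no separate evidence, since deviations from a genotype's own mean cancel within it, which pushes them to be negative. The pairing rests on the data and the shared numbers, since what a number stands for is not stated. The libraries held 80626787 to 108909613 unique reads. Of the 200 genes, 14 have a library under 1 RPKM, where the pseudocount lowers the range. Genes named are the 12 highest scores, the 4 highest in each order, up to 4 members of each list, the 5 largest blocked rises and 5 largest blocked falls, the 3 largest intron rises, and 3 genes either side of the limit. RPS6, RACK1B, the other rises named by their fold change alone, the neighbouring genes and those of the printed promoters were chosen after their values were seen. Of 838 list symbols in 22 lists, 799 matched 1 gene. Annotation and promoter sequence are from RefSeq TAIR10.1, matched by locus. Alternatives were other pseudocounts, filters and scaling, the block, edgeR, DESeq2 and leaving out each library.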

Additional observations from a re-analysis of the deposited data

How the results depend on the processing

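Of the 200 genes, limma without the block called 0 between the genotypes, also under every other pseudocount, filter and scaling and without any 1 library. With the replicate block, which uses the pairing by number, it called 34; on rescaled RPKM with the block 49. Among the 141 genes with unique counts, edgeR with the block called 26 and DESeq2 called 1 without the block and 46 with it. In an alternative chosen after seeing the data, the blocked fit called 0 without the pair of replicate 1, 18 without that of replicate 2 and 24 without that of replicate 3, over 4 libraries each, against 0, 237 and 394 of all 17163 genes. Choosing the genes for wide ranges within a genotype widens the spread that the fit without the block uses. The block removes what same-numbered libraries share, and the rule also selected for such shared variation. For the 10 genes with the largest blocked rises and falls, the limma fit without the block was set against each alternative, in 154 comparisons. Of these, 121 kept their side of the threshold and direction, 33 passed it and 0 reversed. None of the 10 passed in that limma fit, so no call could be lost in these comparisons. AT3G21670 passed in DESeq2 without the block as well as with it. The rule applied with a pseudocount of 0.1 chose 192 of the 200 again, with a minimum of 5 RPKM 164, with 20 RPKM 142, after rescaling 149, and on unique reads 131 of 141. Introns called higher in the mutant numbered 468, and 482 with the block, 407 with a pseudocount of 0.05, 466 at a depth of 30, and 399 to 446 without 1 library, with 0 lower throughout. The difference in median retention was 1.23 points with the pairing (exact sign-flip p = 0.25, the smallest for 3 pairs), 1.15 to 1.35 without 1 library, 1.4 from summed depth and 1.54 over first introns. Of the 141 genes with unique counts, 1 had a library under 10 unique reads, and for the rest of the 200 the read number was not checked. Of all 200 genes, 14 had a library under 1 RPKM.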
